A study of Oryza sativa with 6 samples.

Results

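The DREB1 and DREB2 genes of rice (Oryza sativa, cultivar Nipponbare) encode transcription factors of the AP2/ERF family. The set described here holds 9 genes of the 55801 loci counted, defined by locus identifier and with earlier results of these data known. It has 7 DREB1 genes (DREB1A, 1B, 1C, 1E, 1F, 1G and 1H) and 2 DREB2 genes (DREB2A and DREB2B). Their levels were compared between the end of the night and the end of the day. Seedlings were raised on Chu's medium at 28 °C under 12 h of light and 12 h of dark, with no stress treatment named in the labels. The 3 AM libraries came from plants collected 30 min before lights on and the 3 PM libraries from plants collected 30 min before lights off. No transgene, mutation or other genotype separates the groups. Whether replicates came from separate plants is not stated in the labels. The p-values therefore reflect the spread among these 6 libraries, part of which may be technical.

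DREB proteins bind a short element, the dehydration-responsive element, in the promoters of genes that protect cells against cold, drought and salt. The DREB1 group, also called CBF, is known mainly from the response to cold, in which it is switched on within a short time of chilling. The DREB2 group is known from dehydration, salt and heat. In Arabidopsis the CBF genes are also under the control of the circadian clock even in the absence of stress.

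Libraries held 13 M to 66.7 M gene counts. Reads aligned to more than 1 place, which were left out of the gene counts, made up 39.1% to 56.1% of all records, so DREB1 copies that resemble one another may have lost reads. The dawn clock gene LHY (LOC_Os08g06110) stood at 3979 ± 175 CPM in AM and 5.06 ± 2.55 in PM, where CPM are read counts scaled to the size of the library after TMM scaling, an adjustment for differences in library composition, and errors are SD with n = 3 here and below. The labels give whole seedlings as the material but panicle as the organ. The summed level of 9 floral organ MADS genes was 6.89 to 9.18 CPM in AM and 4.43 to 5.66 in PM, with MADS8 at 0 in every library and MADS6 and MADS7 at a single count each. Of the 5 floral genes tested, MADS16 was lower in PM (5.33 ± 1.01 to 1.30 ± 0.736 CPM) and MADS58 higher (0.458 ± 0.151 to 1.51 ± 0.336 CPM), with edgeR adjusted p of 0.00384 and 0.00754. The summed level of 5 root marker genes was 26.7 to 34.7 CPM in AM and 8.23 to 10.1 in PM, with LSI2 and NRT2.1 at 0 in every library. Of the 3 root genes tested, LSI1 and HKT2;1 were lower in PM (edgeR adjusted p = 0.000299 and 0.0395). IRT1 did not pass (log2 fold change −1.13, edgeR adjusted p = 0.123). LSI1 made up most of the sum, at 22.1 ± 6.13 CPM in AM and 6.44 ± 0.563 in PM. HKT2;1 overlapped between the groups, at 2.89, 4.26 and 15.1 CPM in AM and 3.38, 1.32 and 1.79 in PM. Over all tested loci, 55.9% had an edgeR adjusted p under 0.05. The part of these organ markers in the results below was not tested. In bulk tissue, fewer cells of a type and less RNA per cell cannot be told apart.

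None of the 3 DREB members that could be tested passed between AM and PM, in a data set where most tested loci did. Of the 9 genes, 3 (DREB1A, DREB2A and DREB2B) had enough counts to enter the test, which was the edgeR quasi-likelihood test with Benjamini-Hochberg adjustment over 20548 loci at 0.05. Among these, 0 were higher and 0 lower in PM, against 55.9% of all loci called, with 28% of the tested loci higher in PM and 28% lower. With 3 genes tested, this is too few to set the family apart from other loci. At an unadjusted p under 0.05 the count was 1, DREB2A, against 12523 of the 20548 loci. At the adjusted threshold it was 0 with DESeq2, which called 5788 loci higher and 5946 lower. With limma-voom it was 1, against 5919 loci higher and 5747 lower. AM and PM values had no overlap at 1 of the 3 tested members, DREB2A, against 64.1% of the tested loci. Among the 6 members below the filter, the values of DREB1H did not overlap either, on 0 to 23 counts in a library. No share without overlap was computed for loci below the filter, so this is not read as a result. The 3 tested members had a median log2 fold change of −0.32, against −0.01 for all tested loci.

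**Figure D1:**
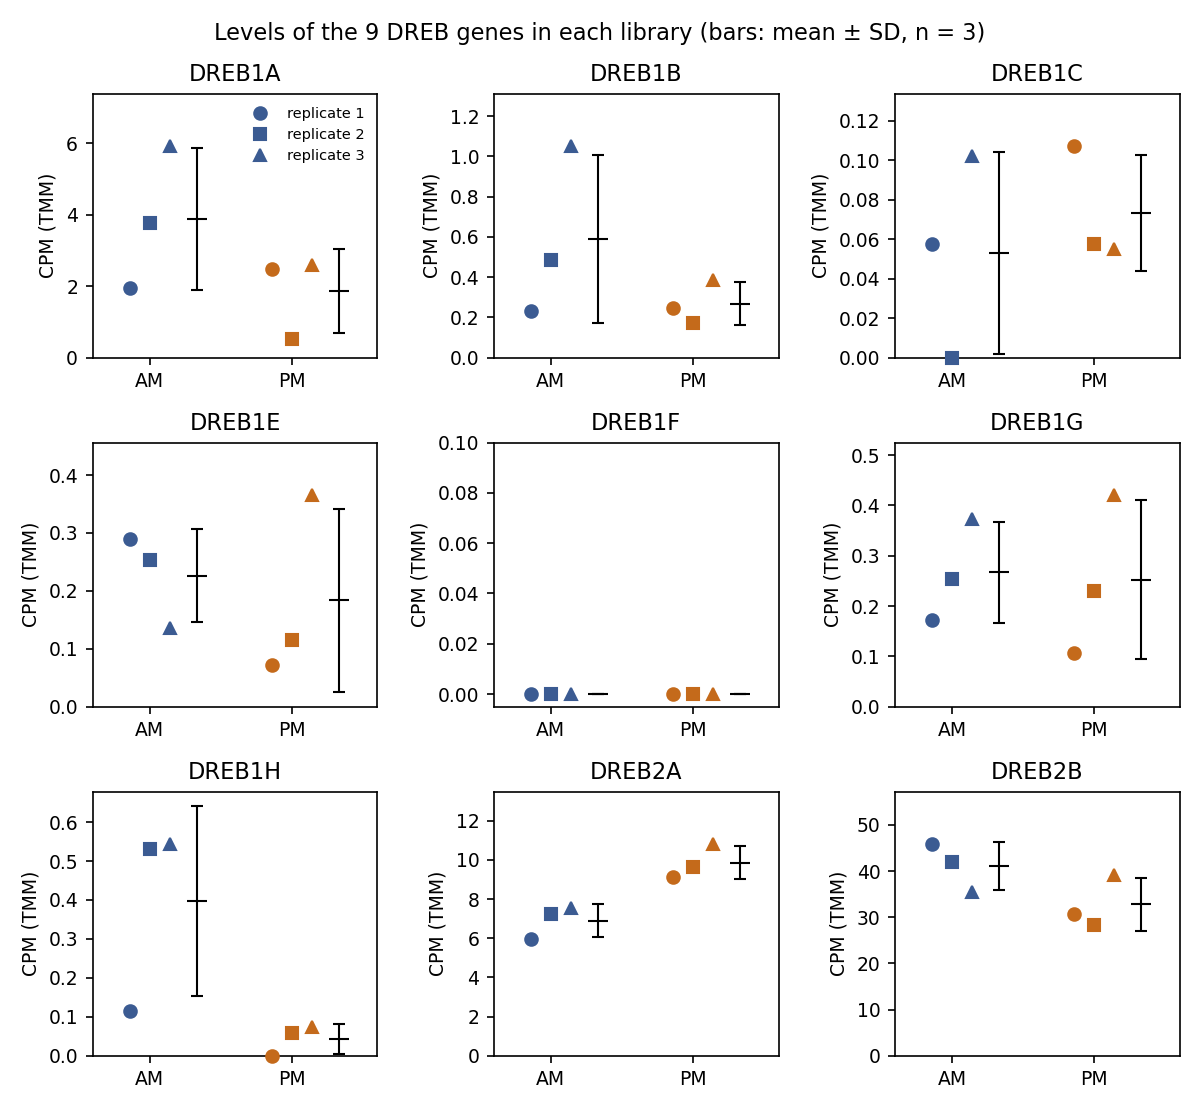
TMM-scaled CPM of each DREB gene in every library, AM in blue and PM in orange, with symbols for the replicates and black bars for the mean ± SD (n = 3). AM and PM points separate at DREB2A, where PM is higher, and at DREB1H, where AM is higher at levels under 1 CPM, and DREB1F is at 0 throughout.

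DREB2A (LOC_Os01g07120, chromosome 1) encodes a factor known from the response to dehydration and salt. It had 103, 312 and 222 counts in AM replicates 1, 2 and 3, and 257, 168 and 593 in PM replicates 1, 2 and 3. On the CPM scale these were 5.94, 7.22 and 7.54 in AM and 9.14, 9.66 and 10.8 in PM. Every PM library thus lay above every AM library. The mean was 6.90 ± 0.843 CPM in AM and 9.88 ± 0.866 in PM, a log2 fold change of PM over AM of 0.52 (SE 0.20, 95% interval 0.07 to 0.96), and the edgeR adjusted p of 0.0506 missed the threshold. DREB2A passed under 5 of 14 alternative settings, over which the adjusted p ran from 0.000462 to 0.147. One of these 5 was the fit without AM replicate 3 (0.58, edgeR adjusted p = 0.0412). The replicates of DREB2A were close to one another: the highest over the lowest library was 1.27 in AM and 1.18 in PM, and the median over all tested loci was 1.49 and 1.41.

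DREB2B (LOC_Os05g27930, chromosome 5) encodes the other DREB2 factor, known in rice for activation by heat and drought and for alternative splicing of its transcript, which counts per gene do not resolve. It had 793, 1813 and 1045 counts in the AM libraries and 862, 493 and 2143 in the PM libraries. These correspond to 45.8, 41.9 and 35.5 CPM in AM and to 30.7, 28.4 and 39.2 CPM in PM. The groups overlapped, since PM replicate 3 exceeded AM replicate 3. The mean was 41.1 ± 5.20 CPM in AM and 32.7 ± 5.68 in PM, a log2 fold change of −0.32 (SE 0.18, 95% interval −0.74 to 0.09, edgeR adjusted p = 0.158). Its sign depended on the scaling: with library totals alone, under which the median locus moved up by 0.84 log2 units, DREB2B stood at 0.52 (edgeR adjusted p = 0.0436), below that median. That scaling called 68% of the loci and put 2 members, DREB2A and DREB2B, higher in PM.

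The balance between both DREB2 genes can be read within each library, free of any scaling between libraries. DREB2A had 13, 17.2 and 21.2 counts per 100 DREB2B counts in AM replicates 1, 2 and 3, and 29.8, 34.1 and 27.7 in PM. The exact 95% counting intervals of the libraries closest to each other were 18.3 to 24.6 in AM replicate 3 and 25.2 to 30.3 in PM replicate 3, and these intervals cover counting error only. All 3 PM libraries held more DREB2A per DREB2B than any AM library, with means of 17.1 ± 4.13 in AM and 30.5 ± 3.26 in PM (n = 3). Such separation is common in these data: 64.1% of single tested loci had no overlap. The share of gene pairs whose ratio separates was not computed. The PM mean was 1.78 times the AM mean, and 1.59 to 2.02 times with any 1 library left out. A two-sided exact permutation test of this ratio gave p = 0.1, the smallest value that 3 samples against 3 allow. The ratio was chosen after the values of both genes had been seen.

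**Figure D2:**
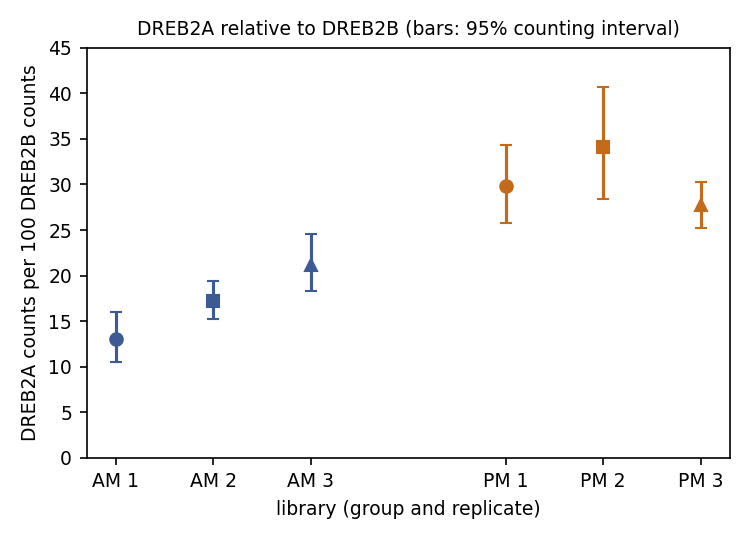
DREB2A counts per 100 DREB2B counts in each library, with exact 95% counting intervals as bars, AM in blue and PM in orange. The AM libraries lie between 13 and 21.2 and the PM libraries between 27.7 and 34.1.

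Among the DREB1 genes, DREB1A (LOC_Os09g35030, chromosome 9), a factor induced by cold in rice, was the one with enough counts for the test. It had 34, 163 and 174 counts in AM replicates 1, 2 and 3, and 70, 9 and 141 in PM. That is 1.96, 3.77 and 5.91 CPM in AM and 2.49, 0.518 and 2.58 CPM in PM. AM replicate 1 lay below PM replicates 1 and 3, so the groups overlapped. The means of 3.88 ± 1.97 and 1.86 ± 1.16 CPM gave a log2 fold change of −1.03 (SE 0.57, 95% interval −2.34 to 0.28, edgeR adjusted p = 0.158). The interval reaches from a fall of 2.34 log2 units to a rise of 0.28.

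Replicates of DREB1A differed more than those of most loci. The highest over the lowest library was 3.01 in AM, a ratio exceeded by 9.63% of the tested loci, and 4.98 in PM, exceeded by 3.62%. These shares are over loci of all levels. Counting error widens the ratio at low counts, and DREB1A had 34 counts in AM replicate 1 and 9 in PM replicate 2. Loci of a similar level were not compared separately. AM replicate 3 was the highest of all 6 libraries and PM replicate 2 the lowest. Without AM replicate 3 the log2 fold change was −0.60 and without PM replicate 2 it was −0.62, and with library totals alone it was −0.20. The summed level of 7 jasmonate genes (the JAZ repressors JAZ9 to JAZ13 and the allene oxide synthases AOS1 and AOS2), which respond to wounding, was 8.60, 9.88 and 15.4 CPM in AM and 11.1, 6.16 and 21.4 in PM. That sum was also highest in replicate 3 within AM and lowest of all in PM replicate 2, but its highest value was in PM replicate 3. The sum was not planned, and its genes are part of a list of 12 stress-responsive genes. The sum over all 12 was 287, 314 and 272 CPM in AM and 177, 136 and 188 in PM. Within AM it was thus lowest in replicate 3. The part of the jasmonate genes in the spread of DREB1A was not tested.

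**Figure D3:**
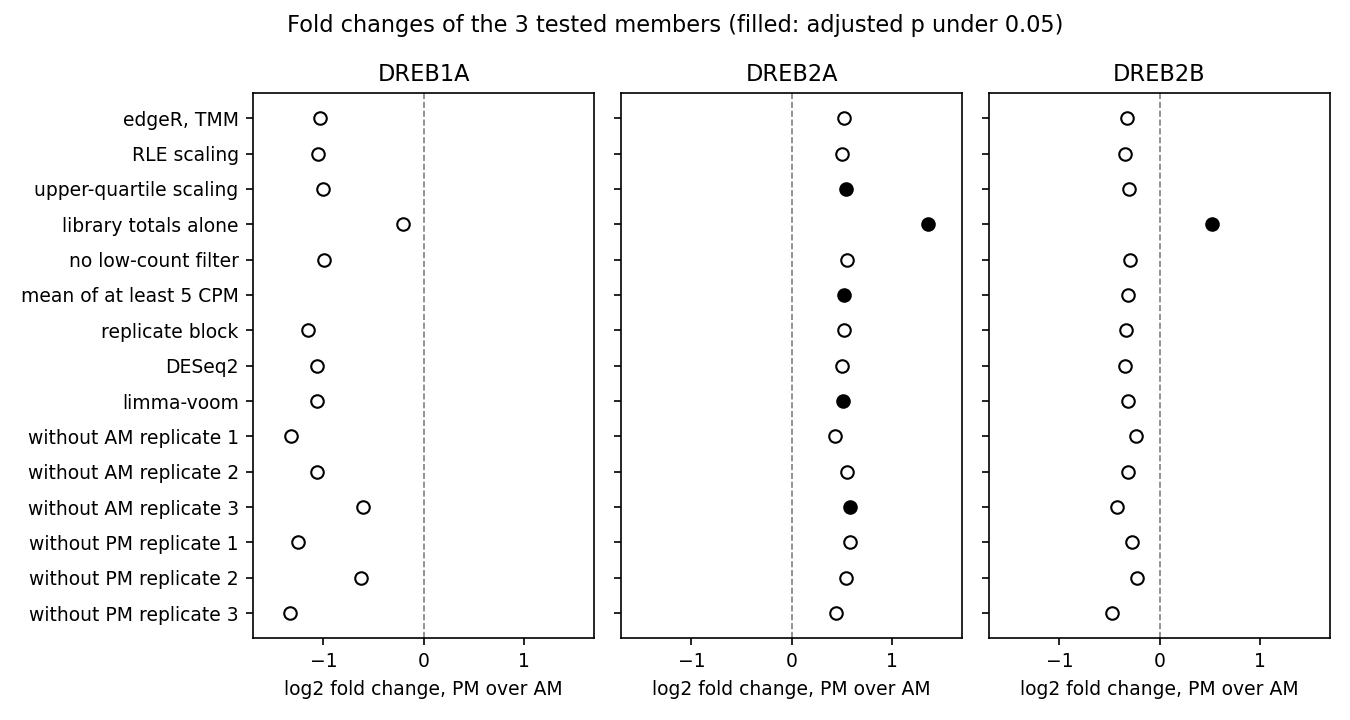
Log2 fold change of PM over AM for the 3 tested DREB genes under the main edgeR fit with TMM scaling (top) and each alternative, with filled points where the adjusted p was under 0.05 and no point where the gene was filtered out. DREB1A stays left of 0 and unfilled throughout, DREB2A stays right of 0, and DREB2B changes side with library totals alone.

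DREB1B (LOC_Os09g35010), DREB1H (LOC_Os09g35020) and DREB1A are direct neighbours on chromosome 9, in that order and with 0 other loci between them, in both the files and the RefSeq gene table. DREB1B, also a cold-induced factor, had 4, 21 and 31 counts in AM and 7, 3 and 21 in PM. These are 0.231, 0.486 and 1.05 CPM in AM and 0.249, 0.173 and 0.384 in PM, again highest in AM replicate 3 and lowest in PM replicate 2. The groups overlapped, and an exact two-sided permutation test of log2(CPM + 0.5) gave p = 0.3. DREB1B had 11.8, 12.9 and 17.8 counts per 100 DREB1A counts in AM and 10, 33.3 and 14.9 in PM, of which the value of 33.3 rests on 3 and 9 counts. In these ratios the groups overlapped too.

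DREB1H had few counts, and most were in AM. It had 2, 23 and 16 counts in AM replicates 1, 2 and 3, and 0, 1 and 4 in PM. The levels were 0.115, 0.532 and 0.543 CPM in AM and 0, 0.0575 and 0.0731 in PM. All AM values were above all PM values, but AM replicate 1, on 2 counts, lay below the limit of 3 counts in that library, 0.173 CPM. The 0 in PM replicate 1 allows a level of up to 0.107 CPM. PM replicate 2, on 1 count, lay below its own limit of 0.173 CPM, which is above the level of AM replicate 1. The separation of these libraries thus rests on very few counts. Pooled over libraries, 41 counts in AM and 5 in PM gave an AM over PM ratio of 9.13 with an exact 95% interval of 3.61 to 29.6, for counting error only. The locus did not pass the low-count filter, and the exact permutation test of log2(CPM + 0.5) gave p = 0.1, the smallest possible. Without the filter, where 38.3% of 31332 loci were called, edgeR put DREB1H at −2.99 (SE 0.93, adjusted p = 0.0179). With some libraries left out the locus passed the filter, but only through the AM libraries where it was high, so those fits are not given as support. Set against its neighbour DREB1A, the difference was not separate from the spread: 5.88, 14.1 and 9.20 counts per 100 DREB1A counts in AM and 0, 11.1 and 2.84 in PM (exact permutation p = 0.3).

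The remaining DREB1 genes had few counts or none at both times, too few to enter the test. DREB1G (LOC_Os02g45450, chromosome 2) had 3, 11 and 11 counts in AM and 3, 4 and 23 in PM, or 0.267 ± 0.101 and 0.252 ± 0.158 CPM. DREB1E (LOC_Os04g48350, chromosome 4) had 5, 11 and 4 counts in AM and 2, 2 and 20 in PM, or 0.226 ± 0.0802 and 0.184 ± 0.159 CPM. Both groups overlapped at each gene, with pooled PM over AM ratios of 1.08 for either gene and exact 95% counting intervals of 0.613 to 1.91 for DREB1G and 0.571 to 2.06 for DREB1E. PM replicate 3 was the highest library for both, and it holds 20 of the 24 PM counts of DREB1E. Without it the log2 difference of DREB1E, PM minus AM of mean log2(CPM + 0.5), moved from −0.11 to −0.29. DREB1C (LOC_Os06g03670, chromosome 6) had 1, 0 and 3 counts in AM and 3, 1 and 3 in PM, too few to compare. DREB1F (LOC_Os01g73770, chromosome 1), known in rice from salt and drought responses, had 0 counts in all 6 libraries, which together allow a level of up to 0.0158 CPM. Whether these genes differed between the times could not be decided at these counts.

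Summed over the family, the 7 DREB1 genes reached 2.83, 5.30 and 8.11 CPM in AM and 3.02, 1.15 and 3.87 in PM. The 2 DREB2 genes reached 51.7, 49.2 and 43 CPM in AM and 39.8, 38 and 50 in PM. Both sums overlapped between the groups. Levels of different genes were not ranked, because transcript lengths were not used here.

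Of 4 other DREB genes of the same groups with a matched name, the only one with more than a few counts was lower in PM. DREB1I (LOC_Os08g43210, chromosome 8) fell from 6.41, 11.4 and 5.40 CPM in AM replicates 1, 2 and 3 to 0.961, 0.518 and 1.46 in PM. No PM library reached the AM range, and 64.1% of all tested loci likewise had no overlap. The log2 fold change was −2.91 (SE 0.43, edgeR adjusted p = 0.000562), and it passed in all 13 alternatives that kept the gene. Its neighbour by locus number, DREB1J (LOC_Os08g43200), had 1 count in all libraries together, DREB2D (LOC_Os05g39590) had 14, and DREB2C (LOC_Os08g45110) had 0. DREB1I did not belong to the set of 9, and whether it differed from DREB1A in its response was not tested.

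Of 9 listed genes that act ahead of the DREB1 genes, 5 had a matched name and all 5 were tested. Among these, 2 rose and 1 fell in PM, and the median log2 fold change was 0.19. With the 4 listed loci whose names were not matched (ICE1, ICE2, HOS1 and PIL14), 3 of 8 tested were higher and 2 lower. In both counts the share called is near the 55.9% of all tested loci, so they say nothing particular to the list. MYBS3 (LOC_Os10g41200), a MYB factor that represses DREB1 genes in rice during long cold, fell from 213, 211 and 176 CPM in AM to 68.9, 62.1 and 65.4 in PM. Its groups were far apart relative to their spread, at a log2 fold change of −1.61 (SE 0.16, edgeR adjusted p = 5.22e-05), and it passed under all 14 alternatives. COLD1 (LOC_Os04g51180), a membrane regulator of G-protein signalling in the sensing of cold, was at 22.9 ± 2.30 CPM in AM and rose to 33.1 ± 7.09 in PM (log2 0.53, SE 0.19, edgeR adjusted p = 0.0428). SAPK6 (LOC_Os02g34600), a SnRK2 kinase of osmotic stress signalling, was at 15.5 ± 3.17 CPM in AM and rose to 23.3 ± 4.16 in PM (log2 0.59, SE 0.21, edgeR adjusted p = 0.0420).

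The COLD1 and SAPK6 calls were lost when single libraries were left out. COLD1 no longer passed at 0.60 without AM replicate 1, 0.45 without AM replicate 2, 0.55 without AM replicate 3, 0.59 without PM replicate 1 and 0.35 without PM replicate 2, nor with RLE scaling (0.52). SAPK6 no longer passed at 0.49 without AM replicate 1, 0.54 without AM replicate 2, 0.51 without PM replicate 1 and 0.53 when PM replicate 3 was left out. The MAP kinase gene MPK3 (LOC_Os03g17700) stood at 0.19 (SE 0.32, edgeR adjusted p = 0.638), at −0.03 without AM replicate 1 and at 1.05 with library totals alone, where it passed (edgeR adjusted p = 0.0116). MYB3R-2 (LOC_Os01g62410), a MYB factor of the cold response, stood at −0.44 (SE 0.21, edgeR adjusted p = 0.105), passed without AM replicate 3 (−0.57, 0.0341), and stood at 0.41 with library totals alone.

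Genes of the protective response that are commonly placed after DREB factors included a pair that fell in PM. Of 9 listed with a matched name, 5 were tested. Of these, 2 were lower and 0 higher, and the median log2 fold change was −1; at an unadjusted p under 0.05 the higher count was also 0, as it was with DESeq2 and limma-voom. Over all tested loci 28% were lower and 28% higher. With the 4 listed loci whose names were not matched, 5 of 9 tested were lower and 0 higher. The shares called, 2 of 5 and 5 of 9, do not exceed the 55.9% of all tested loci. LIP9 (LOC_Os02g44870), a dehydrin known from the rice cold response, had 32.9, 56.1 and 35.6 CPM in AM and 4.66, 3.39 and 3.33 in PM. This is a log2 fold change of −3.45 (SE 0.27, edgeR adjusted p = 1.68e-05), and it passed under all 14 alternatives. SALT (LOC_Os01g18210), a jacalin-related lectin induced by salt, was at 26.1 ± 3.74 CPM in AM and fell to 12.6 ± 0.458 in PM (log2 −1.06, SE 0.17, edgeR adjusted p = 0.000852), and stood at −0.20 with no call with library totals alone. The LEA protein gene LEA3, the proline synthesis gene P5CS1 and the phosphatase gene TPP1 did not pass. The 4 RAB16 dehydrin genes had at most 1.6 CPM in any library and did not pass the low-count filter. RAB16D (LOC_Os11g26750), named after its values were seen, had 13, 69 and 2 counts in AM and 1, 0 and 0 in PM. The pooled AM over PM ratio was 93.5 with an exact 95% counting interval of 16.3 to 3737, and 1 AM library holds most of its counts. Without the filter edgeR put it at −5.82 (adjusted p = 0.00165).

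Of 12 other stress-responsive genes listed with a matched name, 10 were tested: 2 rose, 3 fell, and the median log2 fold change was −0.23. These counts too are near the shares over all tested loci, 28% higher and 28% lower. With the 4 listed loci whose names were not matched, 2 rose and 4 fell of 14 tested. The heat shock factor gene HSFA3 (LOC_Os02g32590), whose Arabidopsis counterpart is a target of DREB2A, rose from 3.52, 1.32 and 1.90 CPM in AM to 14.7, 13.7 and 17.3 in PM (log2 2.81, SE 0.35, edgeR adjusted p = 0.000212). HSFA2C (LOC_Os10g28340), another heat shock factor gene, was at 6.24 ± 2.60 CPM in AM and rose to 14.6 ± 3.63 in PM (log2 1.24, SE 0.33, edgeR adjusted p = 0.0119). Both passed under all 14 alternatives, and both had no overlap between the groups, as had 64.1% of all tested loci.

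The stress NAC factor genes NAC5 (LOC_Os11g08210) and SNAC2 (LOC_Os01g66120) fell by 1.27 (SE 0.19) and by 1.04 (SE 0.18) on the log2 scale, with edgeR adjusted p of 0.000659 and 0.00136. With library totals alone they stood at −0.42 and −0.18 and neither passed. The chaperone gene HSP101 (LOC_Os05g44340), named after its values were seen, had 12.2, 12.3 and 0.713 CPM in AM and 0.178, 1.32 and 0.0548 in PM. Its AM replicate 3 fell within the PM range, and its log2 fold change was −4.33 (SE 1.24, edgeR adjusted p = 0.0161). HSP101 no longer passed without PM replicate 1 (−3.88, 0.0635) or with limma-voom (−4.61, 0.0548), and stood at −6.31 without PM replicate 2, −4.97 without AM replicate 3 and −3.59 when PM replicate 3 was left out. The called members of these lists, like the floral and root marker sums given above, differ between the same libraries, and the part of one in the other was not tested.

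**Figure D4:**
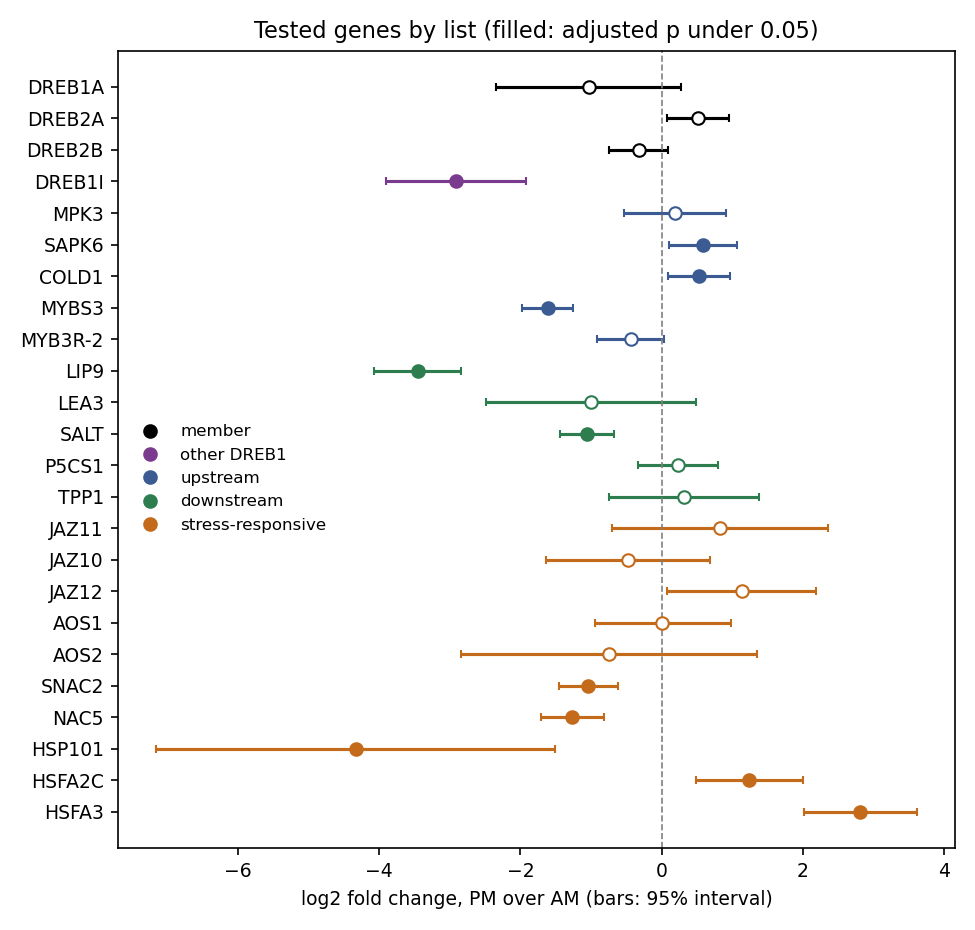
Log2 fold change of PM over AM with 95% intervals for the tested genes, coloured by list and filled where the edgeR adjusted p was under 0.05. The intervals of DREB1A and DREB2B include 0 and that of DREB2A runs from 0.07 to 0.96, while LIP9, MYBS3 and DREB1I lie to the left of 0 and HSFA3 to the right.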

How the data were processed

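Libraries were built from 2 µg of total RNA with an NEB directional kit, per the labels' protocols. Each deposited file is a table of raw, unnormalized counts by MSU locus. The submitters' processing notes name Trimmomatic 0.33, STAR and HTSeq 0.6.1 as the authors' tools. No coordinates are printed, since neither build nor strand setting is given in those notes. Records on no feature made up 2.92% to 6.26% of all records in a library. They stayed out of library sizes, as did ambiguous ones (0.112% to 0.171%) and those aligned to more than 1 place. No pair of replicates agreed within sampling noise (chi-square divided by its degrees of freedom, 20 to 149), and each of the 6 libraries counts as a sample.

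The PM against AM comparison used edgeR 4.0.16 in R 4.3.3 (quasi-likelihood test, TMM factors, filterByExpr with a minimum count of 10). Members below the filter were compared by exact permutation tests of log2(CPM + 0.5), which cannot go below 0.1 with 3 against 3. Intervals are at 95%. Alternatives used DESeq2 1.42.0 and limma 3.58.1 among others. On simulated counts for the 20548 loci of PM against AM, edgeR recovered 38% of 100 loci changed 2-fold and 99% of 100 changed 4-fold. All of these were above 5 CPM, and 17 unchanged loci were called. Far fewer loci were changed there than the 55.9% called in the data, which makes the adjustment stricter in the simulation. These shares are therefore not the power of the real comparison. DREB1A, at 3.88 CPM in AM and 1.86 in PM, also lies below the simulated range.

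The members and the lists were chosen with earlier results of these data known. Names were matched to the RefSeq gene table of assembly ASM3414082v1 by symbol, chromosome and gene order: all 9 members and 54 of 69 entries matched. The other 15 were left out, except where counts with the unmatched loci are given. Every member and every matched gene among the other DREB and upstream genes is named. From the downstream and stress-responsive lists, the called genes with the smallest p are named, up to 2 in each direction. HSP101, RAB16D and the organ markers were named after their values were seen. A search for genes with the most similar pattern was planned for called members only, and there were none. Promoter motifs, protein identity and levels per coding length, also planned, were not analysed here.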

Additional observations from a re-analysis of the deposited data

How the results depend on the processing

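No DREB1A, DREB2A or DREB2B fold change changed sign under any alternative that kept the gene, apart from DREB2B with library totals alone (0.52). The adjusted p of DREB2A passed with upper-quartile scaling (log2 0.54), library totals alone (1.36), a mean of at least 5 CPM (0.52) and limma-voom (0.51), so that 1, 2, 1 and 1 members were then higher. Over all loci, 5877 of 20548, 11201 of 20548, 4177 of 13748 and 5919 of 20548 were higher under these settings. Leaving out each library gave 0 to 1 higher and 0 to 1 lower members, 0.43 to 0.58 for DREB2A, −0.47 to −0.22 for DREB2B and −1.33 to −0.60 for DREB1A. The 1 lower member was DREB1H, without AM replicate 1 or without PM replicate 2. It passed the filter there only through the AM libraries where it was high, so these counts are not given as support. With no low-count filter 1 member was lower, DREB1H at −2.99. Its difference in log2(CPM + 0.5) was −0.94 to −0.55 with 1 library left out. With library totals alone the DREB2 sum averaged 35.8 CPM in AM and 57.1 in PM, downstream genes had 1 higher and 1 lower, stress-responsive genes had 1 lower, and MYB3R-2 stood at 0.41. Of the other DREB genes, 0 were lower at a mean of at least 5 CPM, since DREB1I was then filtered out. Upstream genes had 1 higher with RLE scaling, and 0 to 1 higher and 1 to 2 lower with 1 library left out; MPK3 then ran from −0.03 to 0.42. No pairing by replicate number was seen: same-numbered AM and PM libraries had correlated deviations of −0.058, −0.273 and 0.102 over loci. Differently numbered libraries ran from −0.406 to 0.387, so with 3 libraries in a group this check cannot exclude a pairing. With the replicate number as a block, 0 upstream genes were higher, and DREB1A, DREB2A and DREB2B stood at −1.15, 0.52 and −0.33, none past the threshold. The depth of the libraries limits the low members, since 3 counts equal 0.0548 to 0.173 CPM.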
